A study of Mus musculus with 10 samples.

Results

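Claudins and their partner proteins hold the cells of the lung epithelium together, and 8 genes that encode them were followed here in alveolar type II cells (AT2 cells), which make the surfactant of the alveolus. They were Cldn3, Cldn7, Cldn18, Ocln, Tjp1, Cgn, F11r and Cdh1, listed as tight and adherens junction genes and found by Ensembl ID, so that the set is 8 of the 16154 genes of the table. All 8 passed the filter on low values, which asked for a value of 1 normalized count per M or more in 5 or more libraries and left 12946 genes. Polyadenylated RNA was sequenced from sorted AT2 cells of C57BL/6 mice aged 8 to 10 weeks, in 2 groups of 5 libraries. The libraries labelled HOILKO (replicates 1 to 5) carry the genotype HOIL-1L -/-, and the design text gives them as CreSPC/HOIL-1Lfl/fl, a floxed allele with Cre under the promoter of surfactant protein C, which is active in AT2 cells. The libraries labelled WT (replicates 2 to 6) are wild type, without a floxed allele or Cre in their labels. HOIL-1L, the product of Rbck1, is a subunit of the LUBAC ubiquitin ligase complex. The titles give each library a mouse number of its own, and each was treated as 1 mouse. No treatment other than the genotype is given.

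Tight junctions close the gap between neighbouring epithelial cells near their apical side. Claudins are the membrane proteins that build the junction strands and set which ions may pass, occludin and JAM-A lie beside them in the membrane, and ZO-1 and cingulin tie the strands to actin inside the cell. Adherens junctions lie just below and hold the cells together through E-cadherin and its catenin partners. In the alveolus claudin-3, claudin-4 and claudin-18 are the claudins most often studied, and mice without claudin-18 have been reported with a changed alveolar barrier.

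Rbck1, the targeted gene, went against 2 of the labels. It stood at 59.3, 29.8, 36.4, 38.0 and 38.8 per M in the libraries labelled HOILKO 1 to 5, against 29.7, 56.7, 57.8, 56.1 and 56.6 per M in those labelled WT 2 to 6. The library labelled HOILKO 1 lay at the level of WT 3 to 6 and the library labelled WT 2 at that of HOILKO 2 to 5. As labelled, the log2 fold change was -0.34 ± 0.18 (SE), a difference within the spread of the libraries (p = 0.206 in a two-sided exact permutation test). Every direction below is drawn from the labels as given, and for the 8 genes and the medians of the lists the value without both libraries is given as well. The labelled cell type was checked against its markers, and the 10 AT2 markers summed to 183800 to 211500 per M in HOILKO and 184400 to 220500 per M in WT. Column totals of the normalized table lay between 6.94 and 7.43 M, and depth in reads could not be recovered from them.

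The level of a gene per length was compared first, as normalized counts per M and per kb of exon. Cldn3, which encodes claudin-3, a claudin that seals the junction, was the highest of the 8 at 381 ± 32.6 per M and kb in HOILKO and 424 ± 24.2 in WT (SD, n = 5 each). Cldn18, which encodes claudin-18, stood at 239 ± 5.81 per M and kb in HOILKO and 242 ± 11.9 in WT. Cdh1, which encodes E-cadherin, stood at 205 ± 12.5 per M and kb in HOILKO and 191 ± 12.2 in WT. These 3 genes had ranks 67, 128 and 159 by mean level per kb among the 12865 tested genes with a known exon length. F11r, which encodes JAM-A, followed at 76.9 ± 4.84 per M and kb in HOILKO and 82.4 ± 2.44 in WT, and Cldn7 at 49.2 ± 2.63 in HOILKO and 56.7 ± 2.26 in WT. The plaque proteins and occludin were the lowest, with Tjp1 at 19.0 ± 1.09 per M and kb in HOILKO and 16.6 ± 1.34 in WT, Cgn at 14.0 ± 0.621 in HOILKO and 13.8 ± 1.20 in WT, and Ocln at 10.3 ± 0.985 in HOILKO and 11.8 ± 0.964 in WT. Neighbours in this order had ranges over the 10 libraries that did not overlap, except Tjp1 and Cgn (15.0 to 20.7 and 12.7 to 15.8 per M and kb) and Cgn and Ocln (9.20 to 13.2 for Ocln). Of the summed level per kb of the 12 claudin genes listed in the table, Cldn3 made up 55.1% ± 1.63 in HOILKO and 57.1% ± 1.61 in WT, Cldn18 34.7% ± 1.66 in HOILKO and 32.7% ± 1.71 in WT, and Cldn7 7.12% ± 0.306 in HOILKO and 7.64% ± 0.308 in WT (SD, n = 5 each). The exon length used for Cldn18 covers the transcripts of both its starts, of which one is known as the lung and the other as the stomach form.

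The windows before the RefSeq starts (GRCm38.p6) of 5 of the genes are shown, because the highest r between the 8 genes were those among Cldn3, Cldn7 and F11r, and the lowest was that of Tjp1 with Cldn7 (0 of the pairs passed adjustment), and Ocln is shown for its E-box letters. Where a gene has 2 listed starts, the window with more of the motifs is the one shown. Each is the 250 bases upstream of a start, 5′ to 3′ on the gene's strand. Capitals mark the E-box CACCTG or its complement CAGGTG, the letters that SNAI and ZEB repressors of epithelial genes are known to bind, and the GC box GGGCGG or its complement CCGCCC, known for SP and KLF factors. A base may be shared between the 2 motifs.
Cldn3, chr5:134985964-134986213, plus strand: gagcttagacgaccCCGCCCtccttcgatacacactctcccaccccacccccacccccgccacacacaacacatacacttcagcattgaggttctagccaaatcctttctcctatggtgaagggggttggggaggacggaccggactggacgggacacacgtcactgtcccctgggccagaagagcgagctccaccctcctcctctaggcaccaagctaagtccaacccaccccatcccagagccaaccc
Cldn7, second listed start, chr11:69965171-69965420, plus strand: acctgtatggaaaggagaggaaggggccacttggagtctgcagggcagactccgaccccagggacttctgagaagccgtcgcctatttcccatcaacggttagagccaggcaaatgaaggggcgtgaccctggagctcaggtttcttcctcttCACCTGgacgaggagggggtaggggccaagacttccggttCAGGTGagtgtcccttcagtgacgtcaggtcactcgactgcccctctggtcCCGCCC
F11r, chr1:171437311-171437560, plus strand: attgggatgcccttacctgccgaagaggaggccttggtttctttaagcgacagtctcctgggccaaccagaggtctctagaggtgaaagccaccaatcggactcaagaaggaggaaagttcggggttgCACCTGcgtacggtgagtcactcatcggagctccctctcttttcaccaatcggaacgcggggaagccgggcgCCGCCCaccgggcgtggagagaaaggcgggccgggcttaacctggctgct
Ocln, second listed start, chr13:100552499-100552748, minus strand: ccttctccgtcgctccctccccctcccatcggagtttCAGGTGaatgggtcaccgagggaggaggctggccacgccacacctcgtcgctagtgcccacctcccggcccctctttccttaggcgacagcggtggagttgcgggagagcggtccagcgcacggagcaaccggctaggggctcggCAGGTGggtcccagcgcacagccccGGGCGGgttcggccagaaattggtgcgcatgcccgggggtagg
Tjp1, chr7:65371245-65371494, minus strand: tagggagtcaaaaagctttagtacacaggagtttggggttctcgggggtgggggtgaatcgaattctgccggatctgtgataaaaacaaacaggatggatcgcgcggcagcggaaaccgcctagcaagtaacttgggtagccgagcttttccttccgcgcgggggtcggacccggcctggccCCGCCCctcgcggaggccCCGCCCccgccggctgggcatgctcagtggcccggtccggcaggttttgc

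The RefSeq table matched 7 of the 8 genes with 10 windows, since Cldn7, Cldn18 and Ocln have 2 starts each in it. The E-box letters were in the windows shown for Cldn7 and Ocln at 2 places each and for F11r at 1 place, and in none of the other 7 windows. They were in 17.2% of all 32851 windows of the same length. The GC box was in the 5 windows shown, with 2 places in that of Tjp1. It was also in those of Cgn at 6 places and of the other Ocln start at 1 place. The window of the other Cldn7 start (51.2% G and C) and both windows of Cldn18 held none, and it was in 32.7% of all windows. The motif AACNGGTT, which resembles the letters known for grainyhead-like factors, was found before Cgn only, and in 1.79% of all windows. The 5 windows shown were rich in G and C (60.0% to 69.2%), against a median of 52.4% over all windows. Those of Cldn7 and Ocln were chosen by their motifs, which bears on these shares. The windows not shown held 51.2% for Cldn7, 52% and 54% for Cldn18, 64% for Ocln and 70.4% for Cgn. These matches describe letters in these windows. Of the E-box-binding repressors and their kin, Snai1, Snai2, Snai3, Zeb1, Zeb2, Twist1 and Twist2 all stayed under 1 per M in every library.

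The comparison of HOILKO with WT asked whether loss of HOIL-1L went with other levels of junction RNA. With limma on log2(value per M + 0.5) over all 12946 genes, 0 of the 8 genes passed an adjusted p of 0.05 (Benjamini-Hochberg), as did 0% of all genes. At an unadjusted p under 0.05 there were 4 of the 8, against 9.48% of all genes. Of these 4, Cldn3, Cldn7 and Ocln lay toward lower values, as did 3.28% of all genes at that p, and Tjp1 toward higher values, as did 6.2%. Without both doubted libraries 0 of the 8 passed the adjusted p, against 0.402% of all genes, and within the second run of mouse numbers (HOILKO 4 and 5, WT 4 to 6) 0 of the 8, against 0.317%. Log2 fold changes ran from -0.20 for Cldn7 to 0.19 for Tjp1, with 5 genes below 0, 3 above and a median of -0.06, against a median of 0.005 over all genes tested. The 95% intervals of all 8 lay between a 0.779-fold and a 1.27-fold level in HOILKO relative to WT. Summed over the 8 genes the values lay between 2896 and 3151 per M in HOILKO and between 2968 and 3231 per M in WT, so that the groups overlapped.

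**Figure D1:**
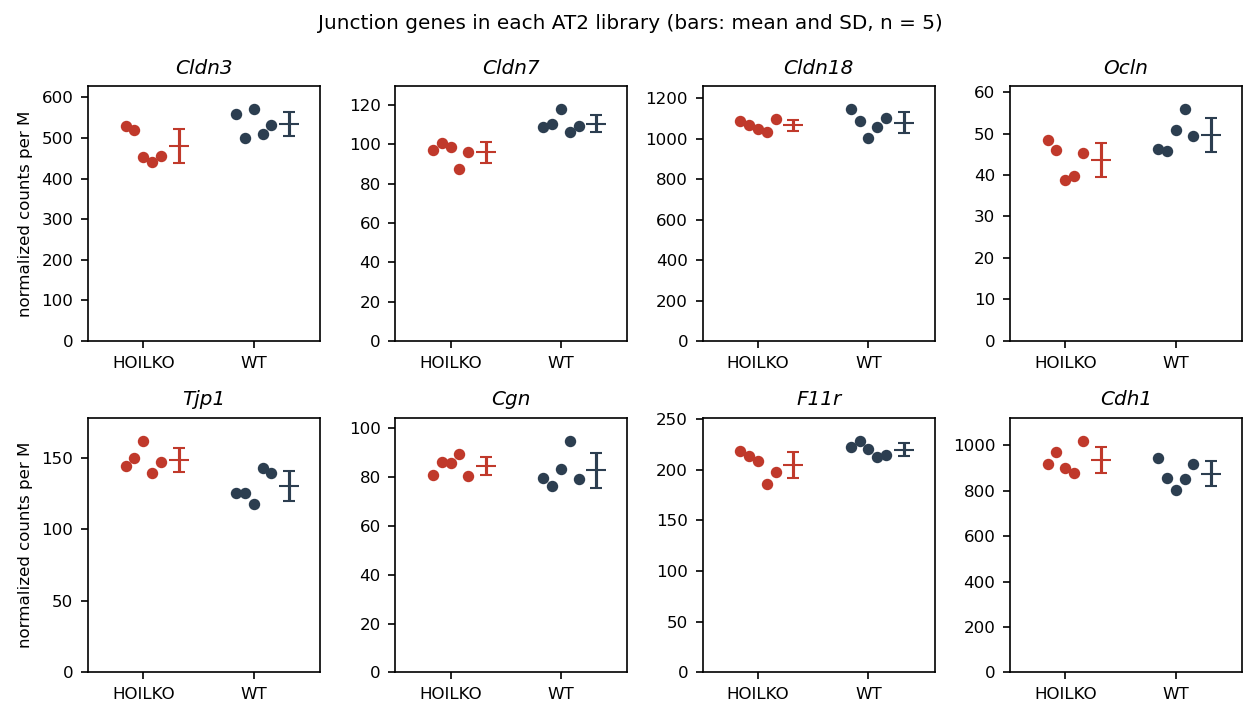
Normalized counts per M (vertical axis, from 0) of the 8 junction genes in each of the 5 libraries labelled HOILKO (left, replicates 1 to 5 from left to right) and the 5 labelled WT (right, replicates 2 to 6), with the mean and SD of each group beside the points. The groups do not overlap for Cldn7, where the HOILKO libraries reach 101 and the WT libraries start at 106 per M, and they overlap for the other 7 genes.

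Among the claudins, Cldn7 was the gene whose groups did not overlap. Claudin-7 is found along the sides of many epithelial cells as well as at the tight junction, and its gene lies on chromosome 11 (69964779 to 69967885, plus strand, protein coding, as are all 8; mm10). It stood at 97.0, 101, 98.5, 87.2 and 95.8 per M in HOILKO 1 to 5, against 109, 110.2, 118, 106 and 109 per M in WT 2 to 6. All 5 HOILKO libraries lay below the lowest WT library, also the library labelled HOILKO 1, and the library labelled WT 2 lay among the other WT libraries. Groups that did not overlap were found for 1.59% of all genes, and with HOILKO the lower one for 0.633%. The log2 fold change of Cldn7 was -0.20 ± 0.06 (SE, 95% interval -0.34 to -0.07, limma adjusted p = 0.348), so it did not pass over all genes. It was -0.21 without both doubted libraries (adjusted p = 0.232), -0.15 within the first run (HOILKO 1 to 3, WT 2 and 3) and -0.28 within the second. Both doubted libraries are in the first run, so that first-run values here and below rest on them in part.

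Cldn3 (chromosome 5, 134986214 to 134987472, plus strand) stood at 528, 520.2, 454, 441 and 455 per M in HOILKO 1 to 5, against 560, 501, 571, 509 and 532 per M in WT 2 to 6. HOILKO 3, 4 and 5 lay below every WT library, and HOILKO 1 and 2 lay within the WT range. Its log2 fold change was -0.16 ± 0.07 (SE, 95% interval -0.31 to -0.01, limma adjusted p = 0.507) and -0.18 without both doubted libraries. Within the first run it was -0.08, and within the second -0.26. The last bases of Cldn3 overlap the antisense gene Wbscr25, which stood at 0.723 to 1.77 per M in HOILKO and 0.703 to 2.47 per M in WT. How the counting treated strand is not given in the sources used here, and the part of reads from Wbscr25 in the Cldn3 value was not tested.

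Cldn18 (chromosome 9, 99689461 to 99717267, minus strand) had the smallest difference of the 8. It stood at 1087, 1066, 1047, 1036 and 1097 per M in HOILKO 1 to 5, against 1147, 1091, 1004, 1057 and 1103 per M in WT 2 to 6, and every HOILKO library lay within the WT range. The log2 fold change was -0.02 ± 0.06 (SE, 95% interval -0.15 to 0.12, limma adjusted p = 0.947), and its sign changed with equal column totals (0.0084), within the second run (0.0166) and without WT 2 (0.0045). Without both doubted libraries it was -0.0024. Levels of the lung and stomach forms were not separated, since the values are per gene.

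Ocln, which encodes occludin, a membrane protein of the strands that regulates rather than builds them, lies on chromosome 13 (100496507 to 100552718, minus strand). It stood at 48.4, 46.1, 38.8, 39.8 and 45.2 per M in HOILKO 1 to 5, against 46.2, 45.9, 50.8, 55.9 and 49.4 per M in WT 2 to 6. HOILKO 3, 4 and 5 lay below all WT libraries. The log2 fold change was -0.18 ± 0.08 (SE, 95% interval -0.36 to -0.01, limma adjusted p = 0.510), -0.25 without both doubted libraries (adjusted p = 0.265), -0.06 within the first run and -0.29 within the second. F11r, whose product JAM-A is an immunoglobulin-like adhesion protein of the tight junction, lies on chromosome 1 (171437535 to 171464603, plus strand). It stood at 218, 213, 208, 186 and 198 per M in HOILKO 1 to 5, against 222, 228, 220.0, 212 and 215 per M in WT 2 to 6. Here too 3 HOILKO libraries (3, 4 and 5) lay below the lowest WT library, and the log2 fold change was -0.10 ± 0.06 (SE, 95% interval -0.23 to 0.03, limma adjusted p = 0.614). It was -0.12 without both doubted libraries, -0.08 within the first run and -0.17 within the second.

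Tjp1, which encodes ZO-1, the scaffold that binds claudins and occludin on the inner side of the membrane, lay toward higher values. Its gene is on chromosome 7 (65296165 to 65527781, minus strand). It stood at 144, 150.0, 162, 139 and 147 per M in HOILKO 1 to 5, against 125, 126, 117, 142 and 139 per M in WT 2 to 6. HOILKO 1, 2, 3 and 5 lay above the highest WT library, WT 5, and HOILKO 4 lay level with WT 6. The log2 fold change was 0.19 ± 0.07 (SE, 95% interval 0.05 to 0.34, limma adjusted p = 0.397), 0.19 without both doubted libraries, 0.28 within the first run and 0.11 within the second. Cgn, which encodes cingulin, an actin- and myosin-binding protein of the same plaque, lies on chromosome 3 (94760069 to 94786492, minus strand). It stood at 80.9, 86.4, 85.6, 89.3 and 80.6 per M in HOILKO 1 to 5, against 79.6, 76.5, 83.5, 94.9 and 79.4 per M in WT 2 to 6, with every HOILKO library inside the WT range. With all libraries its log2 fold change was 0.03 ± 0.07 (SE, 95% interval -0.12 to 0.18, limma adjusted p = 0.900), 0.04 without both doubted libraries, 0.11 within the first run and -0.01 within the second.

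Cdh1 on chromosome 8 (106603351 to 106670246, plus strand), whose product E-cadherin is the adhesion receptor of the adherens junction, stood at 915, 968, 901, 877 and 1019.9 per M in HOILKO 1 to 5, against 942, 857, 803, 853 and 919 per M in WT 2 to 6. HOILKO 2 and 5 lay above all WT libraries and the other 3 HOILKO libraries within the WT range. Cdh1 had a log2 fold change of 0.10 ± 0.07 (SE, 95% interval -0.05 to 0.24, limma adjusted p = 0.669), 0.13 without both doubted libraries, 0.05 within the first run and 0.14 within the second.

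**Figure D2:**
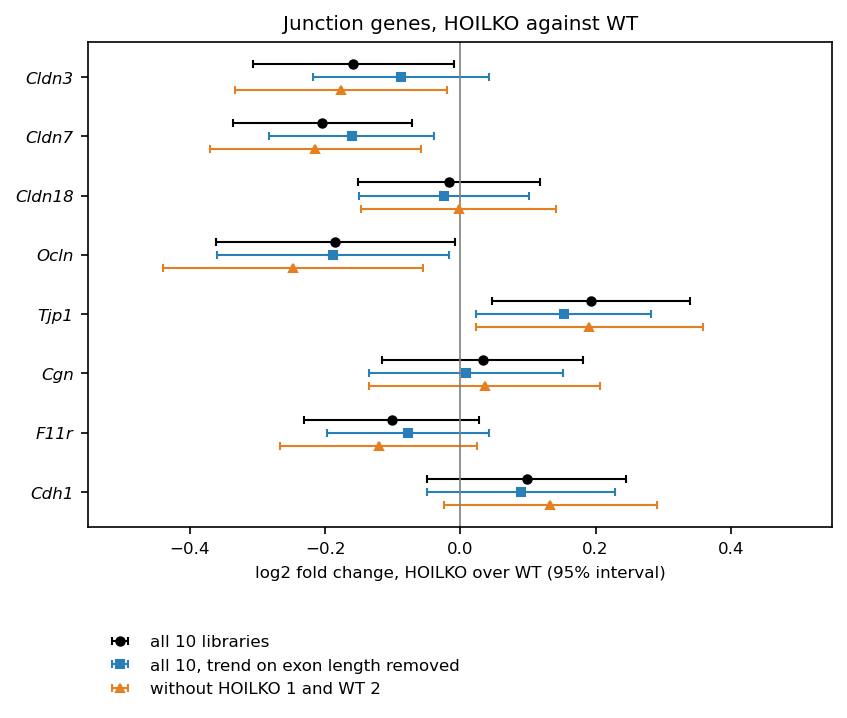
Log2 fold change of HOILKO over WT (horizontal axis) with its 95% interval for the 8 junction genes, from all 10 libraries (circles), with each library's trend on exon length removed (squares), and without the libraries labelled HOILKO 1 and WT 2 (triangles). Cldn7, Cldn3 and Ocln lie below 0 and Tjp1 above 0 in all 3 fits, and the interval of Cldn3 includes 0 once the length trend is removed.

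The length of the transcripts moved with these values. The slope of log2 value on log2 exon length, within each library relative to the mean of all libraries, was -0.003, 0.002, 0.033, 0.026 and 0.047 in HOILKO 1 to 5, against -0.037, -0.030, -0.069, 0.004 and 0.026 in WT 2 to 6. Across the 12865 tested genes with a known length, which are not independent replicates, Pearson's r of the log2 fold change with log2 exon length was 0.25. Cldn3 (1259 bases of exon) and Cldn7 (1948 bases) are the shortest of the 8 and Tjp1 (7811 bases) the longest, with a median of 4290 bases over the tested genes. With the trend removed from each library, the log2 fold change of Cldn3 was -0.09, that of Cldn7 -0.16, that of F11r -0.08 and that of Tjp1 0.15, while that of Ocln (4222 bases) stayed at -0.19. The part of the length trend in the remaining differences was not tested.

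The ratio of Tjp1 to Cldn7 was chosen after the values were seen, from the genes with the highest and the lowest log2 fold change of the 8, and is given as a description with no test. It was 1.49, 1.49, 1.64, 1.59 and 1.53 in HOILKO 1 to 5, against 1.15, 1.14, 0.996, 1.34 and 1.27 in WT 2 to 6 (mean 1.55 ± 0.066 in HOILKO and 1.18 ± 0.13 in WT, SD, n = 5 each). The groups did not overlap in this ratio, which the choice of the genes largely fixed, since Cldn7 by itself did not overlap. WT 5 and WT 6, the WT libraries with the highest length slopes, had the highest ratios of the WT group. HOILKO 1 and 2, at slopes of -0.003 and 0.002, had ratios of 1.49. These lay above WT 5 (slope 0.004, ratio 1.34) and WT 6 (slope 0.026, ratio 1.27). The part of the length trend in the ratio was not tested. The ratio of Cldn3 to Cldn18 overlapped between the groups, at 0.415 to 0.488 in HOILKO and 0.459 to 0.568 in WT.

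**Figure D3:**
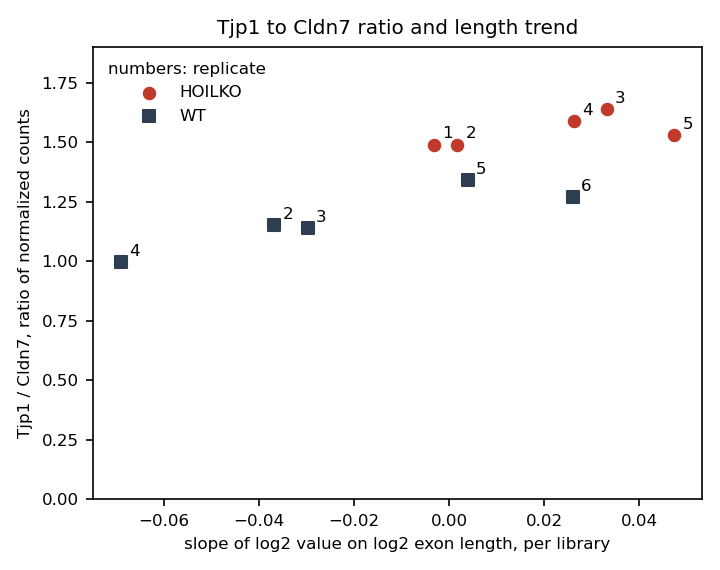
Ratio of the normalized counts of Tjp1 to those of Cldn7 in each library (vertical axis, from 0) against the slope of log2 value on log2 exon length in that library (horizontal axis), with circles for HOILKO and squares for WT and the replicate number beside each point. The HOILKO libraries sit between 1.49 and 1.64, above the WT libraries at 0.996 to 1.34, and the WT libraries with the lowest slopes have the lowest ratios. HOILKO 1 and 2 lie above WT 5 at slopes close to its own.

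Among the 28 pairs of the 8 genes 0 passed Benjamini-Hochberg adjustment over the 10 libraries, and the highest correlations were those among Cldn3, Cldn7 and F11r. Pearson's r of log2 values was 0.82 for Cldn7 and F11r (Spearman's rho 0.79), 0.80 for Cldn3 and Cldn7 (rho 0.68) and 0.78 for Cldn3 and F11r (rho 0.71). For these 3 pairs the permutation p of r were 0.00288, 0.00568 and 0.00540, each with an adjusted p = 0.0530 (permutation test, n = 10 libraries), and those of rho were 0.00879, 0.0352 and 0.0273, each with an adjusted p = 0.164. Without the 2 libraries farthest from the median of the first gene, r was 0.70, 0.67 and 0.66, and of deviations from the group means it was 0.72, 0.62 and 0.64. Ocln ran beside Cldn3 at r = 0.69 (rho 0.77, permutation p = 0.0264 and 0.0124, adjusted p = 0.180 and 0.164). Without the 2 farthest libraries r was 0.28, so that its size depended on them. For this pair r was 0.48 for deviations from the group means and 0.71 with the length trend removed. Tjp1 ran against Cldn7 at r = -0.65 (rho -0.68, permutation p = 0.0407 and 0.0349, adjusted p = 0.180 and 0.164), and r was -0.77 without the 2 farthest libraries. Of deviations from the group means it was -0.07, so that this relation lay between the groups. Cldn18 and Cdh1, the most abundant pair by normalized count, had r = 0.63 (rho 0.66, permutation p = 0.0511 and 0.0447, adjusted p = 0.180 and 0.171), 0.40 without the 2 farthest libraries and 0.85 for deviations from the group means. Of the windows shown for Cldn3, Cldn7 and F11r, those of Cldn7 and F11r hold the E-box letters and that of Cldn3 does not. Genes of a library share its depth, scaling and length trend. With the length trend removed r was 0.74 for Cldn7 and F11r, 0.64 for Cldn3 and Cldn7, 0.64 for Cldn3 and F11r and -0.45 for Tjp1 and Cldn7.

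**Figure D4:**
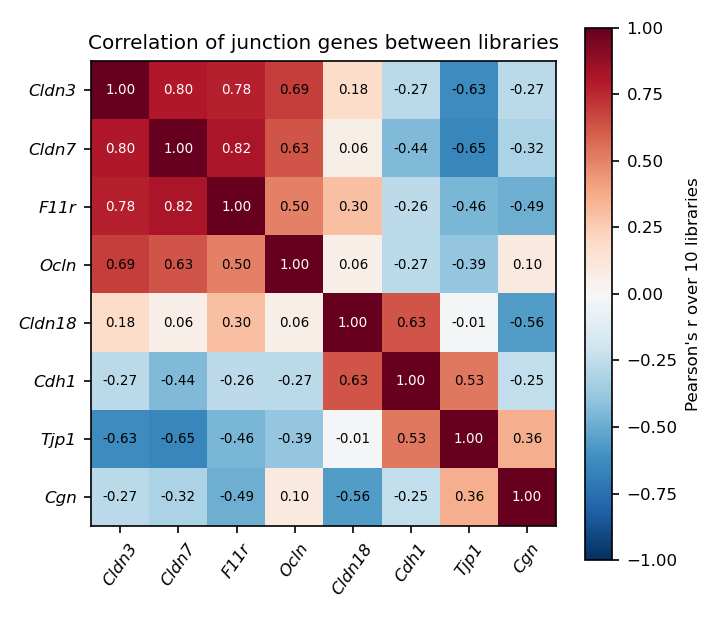
Pearson's r of log2 normalized values over the 10 libraries for each pair of the 8 junction genes, written in each cell and coloured from blue (-1) to red (1). Cldn3, Cldn7, F11r and Ocln form a block of positive values (0.50 to 0.82), Tjp1 has negative values with all 4 (-0.65 to -0.39), and 0 of the 28 pairs passed adjustment. For deviations from the group means, not drawn, r of Tjp1 was -0.30 with Cldn3, -0.07 with Cldn7, -0.01 with F11r and 0.14 with Ocln. That of Ocln was 0.48 with Cldn3, 0.23 with Cldn7 and 0.18 with F11r.

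The genes most alike to each of the 8 over the 10 libraries, among 12857 others, are given as a description with no test. Cldn3 was most like Lgals3 (galectin-3) and Angptl4 (r = 0.914 and 0.913). Vrk1 was among the genes most like Cldn7 (r = 0.935). F11r was most like Arpc5, a subunit of the ARP2/3 actin complex, and Park7 (r = 0.979 and 0.955), and Ocln like Fam151b and Fbxo4 (r = 0.935 and 0.926). Cldn18 was most like Twsg1 and Tmem260 (r = 0.961 and 0.931) and Cdh1 like Vangl1, a planar polarity protein, and Erc1 (r = 0.920 and 0.918). Tjp1 was most like Mga and Zswim6 (r = 0.976 and 0.968), and Zfp354b was among the genes most like Cgn (r = 0.941). The highest of many r over 10 libraries is large by selection, and the genes alike to Tjp1 are long (15340 and 5550 bases of exon) as Tjp1 is.

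Other junction genes were taken from 6 lists, and 0 genes of any list passed (limma, adjusted over all genes). Of 23 further claudin and claudin-domain genes, 10 were in the table and 7 were tested, 4 above 0 and 3 below with a median log2 fold change of 0.04 (0.0069 without both doubted libraries). The other genes of that list are not analysed here. Cldnd1, a claudin-domain gene, and Cldn12 were the highest of them per length, at 17.1 ± 2.36 and 10.3 ± 0.491 per M and kb in HOILKO and 17.5 ± 0.599 and 10.1 ± 0.91 in WT (SD, n = 5 each). Cldn10 stood at 3.37 ± 1.04 per M and kb in HOILKO and 2.86 ± 0.739 in WT, with a log2 fold change of 0.20 ± 0.21 (SE) that was -0.36 within the second run. Cldn4, which encodes the alveolar claudin known to rise in lung injury, was low at 5.98 ± 2.54 per M in HOILKO and 3.94 ± 0.538 in WT, with a log2 fold change of 0.45 ± 0.24 (SE, limma adjusted p = 0.572) that was -0.08 within the second run.

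Of 12 tight junction membrane proteins 8 were tested, 4 on each side of 0 with a median log2 fold change of 0.01 (-0.0013 without both doubted libraries). Esam, Crb3 and Lsr, which encodes an angulin of tricellular contacts, were the highest per length, at 44.0 ± 2.95, 45.5 ± 3.15 and 42.5 ± 0.956 per M and kb in HOILKO and 46.4 ± 6.44, 45.8 ± 3.90 and 44.2 ± 1.58 in WT (SD, n = 5 each). Lsr had a log2 fold change of -0.06 ± 0.06 and Tjap1, a protein of the plaque, of 0.23 ± 0.13 (SE), which was -0.0018 within the first run. Of 27 scaffold and polarity proteins 26 were tested, with 23 above 0 and 3 below, and a median of 0.07. This median was 0.04 with the length trend removed, 0.04 without both doubted libraries and 0.0002 with both changes together. Of all genes 51.3% lay above 0. Cgnl1, which encodes paracingulin, a relative of cingulin, did not overlap between the groups, at 296 ± 12.7 per M in HOILKO and 256 ± 11.7 in WT (SD, n = 5 each; log2 fold change 0.21 ± 0.06 SE, limma adjusted p = 0.314). Groups with HOILKO the higher one and no overlap were found for 0.958% of all genes. Ybx3, which encodes ZONAB, a nucleic acid-binding partner of ZO-1, did not overlap in the other direction, at 78.5 ± 6.02 per M in HOILKO and 92.7 ± 4.44 in WT (log2 fold change -0.24 ± 0.07 SE, limma adjusted p = 0.314). Prkci, the atypical protein kinase C of the polarity complex, had a log2 fold change of 0.19 ± 0.08, Llgl2 of 0.15 ± 0.06 and Pard6a of -0.29 ± 0.15 (SE), with limma adjusted p between 0.490 and 0.571. Amotl2, an angiomotin relative, stood at 29.5 ± 2.42 per M and kb in HOILKO and 28.1 ± 1.54 in WT (SD, n = 5 each), above Tjp1 per length.

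Of 23 adherens junction genes 20 were in the table and 18 were tested, 11 above 0 and 7 below with a median log2 fold change of 0.03, also without both doubted libraries. Ctnnb1, which encodes beta-catenin, the partner of the E-cadherin tail, stood at 397 ± 30.2 per M and kb in HOILKO and 390.2 ± 29.6 in WT (SD, n = 5 each), above Cdh1. Epcam followed at 104 ± 8.36 per M and kb in HOILKO and 109.9 ± 5.95 in WT, and Nectin2 at 64.9 ± 3.21 in HOILKO and 64.4 ± 4.99 in WT. Afdn, the nectin-binding afadin, had a log2 fold change of 0.16 ± 0.08 and Pkp4, a p120-catenin relative, of 0.13 ± 0.08 (SE). N-cadherin (Cdh2) stayed under 1 per M in every library. Of 13 desmosome genes 9 were in the table and 7 were tested, 5 above 0 and 2 below with a median of 0.05 (0.12 without both doubted libraries). Ppl, which encodes periplakin, a linker of desmosomes to keratin filaments, did not overlap between the groups, at 194 ± 9.89 per M in HOILKO and 154 ± 14.8 in WT (SD, n = 5 each). Its log2 fold change was 0.33 ± 0.07 (SE, limma adjusted p = 0.289), and that of Dsp, desmoplakin, 0.17 ± 0.08 (SE). Perp, a desmosome membrane protein, stood at 15.0 ± 2.47 per M and kb in HOILKO and 16.5 ± 1.96 in WT.

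Of 23 transcription factors and splicing regulators known from epithelial junction genes, 21 were in the table and 14 were tested, 10 above 0 and 4 below with a median log2 fold change of 0.04 (0.0091 without both doubted libraries). Grhl2, a grainyhead-like factor known to activate Cdh1 and claudin genes, had a log2 fold change of 0.20 ± 0.08, Klf5 of 0.21 ± 0.09 and the splicing regulator Esrp2 of 0.16 ± 0.08 (SE), with limma adjusted p between 0.447 and 0.532. The most abundant per length were Nkx2-1, the lung lineage factor, at 212 ± 9.19 per M and kb in HOILKO and 208 ± 13.3 in WT, and Foxa2 and Foxa1, at 43.4 ± 2.61 and 42.6 ± 1.99 in HOILKO and 42.8 ± 4.04 and 39.2 ± 4.38 in WT (SD, n = 5 each).

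**Figure D5:**
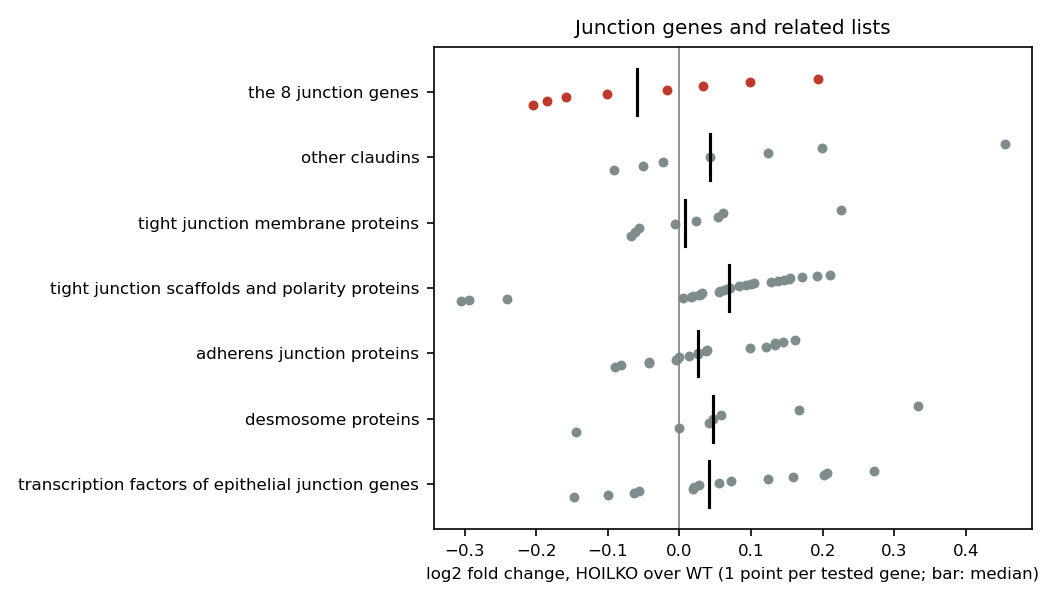
Log2 fold change of HOILKO over WT (horizontal axis) for the 8 junction genes (red) and the tested genes of 6 related lists (grey), 1 point per gene, with a bar at each median. The scaffold and polarity list has 23 of 26 points above 0 with a median of 0.07 (0.0002 without both doubted libraries and with the length trend removed), the median of the 8 junction genes is -0.06, and 0 of the points passed the test.

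Markers of other cell types were set beside these values, and in sorted bulk RNA fewer cells of a type and less RNA per cell cannot be told apart. Of the 10 markers of cells in transition between AT2 and AT1, 9 lay below 0 and 0 passed, and their sum was 550.4 to 699 per M in HOILKO and 712 to 834 per M in WT, without overlap. Krt18, a keratin of this list, did not overlap by itself, with HOILKO the lower group, as in 0.633% of all genes. Krt8 and Krt18, the largest parts of the sum, averaged 228.9 and 141.5 per M in HOILKO and 276.8 and 171.2 in WT. Of the 10 markers all but Krt7 and Itgb6 have less exon than the median of 4290 bases over the tested genes. The part of the length trend in this sum was not tested, nor how often other sums fail to overlap. Lgals3, the gene most like Cldn3, is on this list, and Cldn4 is the member of it that lay above 0. Of the 10 AT1 markers 8 lay below 0 and 0 passed, with sums of 2718 to 3191 per M in HOILKO and 2852 to 3422 per M in WT. The 6 club cell markers summed to 5012 to 9406 per M in HOILKO and 4750 to 9441 per M in WT, and the 7 ciliated cell markers to 96.8 to 151 in HOILKO and 101 to 186 in WT. The endothelial list summed to 126 to 150.1 per M in HOILKO and 124 to 166 in WT, nearly all of it Esam. Kdr averaged 8.95 ± 1.67 per M in HOILKO and 8.46 ± 2.22 in WT, Tek 2.39 ± 0.378 in HOILKO and 2.27 ± 0.833 in WT, and Cdh5 was under 1 per M in all libraries (SD, n = 5 each). Pecam1 and Vwf, which did not pass the filter, were lower in HOILKO, at 0.1985 ± 0.1252 and 0.4215 ± 0.2085 per M. In WT they averaged 0.9182 ± 0.641 and 1.085 ± 0.7992 per M (SD, n = 5 each). Fibroblast, smooth muscle and mesothelial markers summed to 12.8 to 27.2 per M in HOILKO and 11.2 to 21.9 in WT, with 5 of 6 tested markers below 0, a median log2 fold change of -0.56 and 0 that passed. Msln, the mesothelial marker that lay above 0, averaged 10.5 ± 6.39 per M in HOILKO and 3.89 ± 2.72 in WT, and Col3a1 1.34 ± 0.654 in HOILKO and 2.84 ± 0.853 in WT. Upk3b, also a mesothelial marker, did not pass the filter. It lay the other way from Msln, at 0.6789 ± 0.7096 per M in HOILKO and 1.145 ± 0.9332 in WT (SD, n = 5 each). The sum of the macrophage list, 2314 to 3366 per M in HOILKO and 1847 to 4187 in WT, was nearly all Lyz1. Of the list 7 of 7 tested markers lay above 0 with a median log2 fold change of 0.21, and 0 passed. Csf1r (0.0036) and Itgax (0.05) lay close to 0. Chil3 went with the run of mouse numbers, at 12.9 to 20.3 per M in HOILKO 1 to 3 and 13.8 and 22.6 in WT 2 and 3. In the second run it stood at 0.799 and 2.096 per M in HOILKO and 1.457 to 2.9955 in WT. Mrc1, Itgax and Ear2 were also higher in every first-run library than in any of the second. Lyz1, Cd68 and Csf1r overlapped between the runs. The part of the run in these fold changes was not tested. Cd68 averaged 8.32 ± 2.57 per M in HOILKO and 6.13 ± 2.41 in WT, and Ptprc 0.484 ± 0.293 in HOILKO and 1.07 ± 1.19 in WT (SD, n = 5 each). The lymphocyte markers in the table summed to at most 0.121 per M in HOILKO and 0.830 per M in WT. The part of these markers in the values of Cldn3, Cldn7 and the other junction genes was not tested.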

How the data were processed

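The authors deposited 1 table of normalized counts, a signal that is never negative and not whole, for 16154 Ensembl genes and 10 libraries, and every column was matched to its sample by title. Per the labels' protocols, RNA of sorted AT2 cells was lysed at once and made into NEBNext Ultra libraries for a NextSeq instrument. In the submitters' processing notes mm10, edgeR 3.14.0 and bcl2fastq 2.17 are named. The aligner, the strand setting and the way of normalizing were not given in the sources used here. Low values were not whole multiples of 1 read, so no count test was run and no depth or counting interval is given.

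Each value was scaled by 1 constant, the mean total of the columns (7.144 M), and the 12946 genes that reached 1 per M in 5 or more libraries were tested with limma-trend (limma 3.58.1, R 4.3.3) on log2(value per M + 0.5), HOILKO minus WT, two-sided, without covariates, with Benjamini-Hochberg adjustment at 0.05. Fold changes on this scale understate those of low genes. Exon lengths and coordinates come from GENCODE M21 (mm10), and upstream windows from RefSeq. The limma step was tested on simulated data. Correlations used 100000 permutations. Python 3.11.15, numpy 2.4.6, pandas 2.3.3, scipy 1.17.1 and matplotlib 3.10.9 were used.

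The 8 genes and all lists were chosen with earlier results of these data known. The text names the 8 genes, Rbck1, from each junction list the 3 genes highest per kb and up to 5 with the smallest p, the most abundant markers, and the 2 genes most alike to each of the 8. After the values were seen, the genes by p were limited to the first 2 of each list and any others with p under 0.1. Cdh5, Kdr, Tek, Pecam1, Vwf, Ptprc, Cd68, Msln, Upk3b, Col3a1, Krt18, Krt7, Itgb6, Chil3, Mrc1, Itgax, Ear2 and Csf1r were named then. So were the repressors under 1 per M. Some genes that this rule takes are left out of the text and are not reported here. Alternatives were pseudocounts of 0.1 and 2, no filter and a filter at 5 per M, TMM, median-ratio and equal-total scaling, removal of each library's trend on exon length, a block for the replicate number, the run of mouse numbers (2 runs, not named as batches in the labels) as a covariate and each run alone, sample weights, and leaving out each library. Leaving out the libraries labelled HOILKO 1 and WT 2, with and without length removal, and sex as a covariate (3 female libraries: HOILKO 2, HOILKO 3 and WT 2) were chosen after seeing the data. Sex was read from the value of Xist against that of Ddx3y in each library, rather than from the labels.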

Additional observations from a re-analysis of the deposited data

Results flagged for a closer look

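In 76 groups of 5 libraries (38 genes), 5 held a library far from the other 4, where chance gives about 1 in 20. Rbck1 stood at 29.7 per M in the library labelled WT 2, against 56.1 to 57.8 per M in the other WT libraries. Pkp4 stood at 129.6 per M in HOILKO 3, against 112 to 115 per M in the other HOILKO libraries. The other 3 were in HOILKO 4, with Amotl2 at 159.6 per M (others 187.5 to 197.8), Foxa2 at 92.1 per M (others 104 to 108) and Esrp2 at 123 per M (others 97.8 to 105). None of the 8 junction genes had such a library in either group.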

How the results depend on the processing

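Under 26 alternatives, 23 of them planned, 0 of the 8 junction genes passed, with limma adjusted p between 0.110 and 0.993. The number of genes passing over the whole table was 0 with all libraries, 261 with the replicate block, 1 with the run as covariate, 41 within the second run, 0 to 4 when single libraries were left out (4 without HOILKO 1), 52 without both doubted libraries and 54 when the length trend was removed as well. With the replicate block 1 desmosome gene passed, Ppl (log2 fold change 0.35, limma adjusted p = 0.0230). Whether the replicate numbers pair the samples was not settled. Deviations of same-numbered libraries correlated at 0.316, 0.022, 0.097 and 0.080 across genes. Of 8 libraries 3 correlated best with their own number, and no chance rate was worked out for this. Rbck1 passed within the second run (-0.56, limma adjusted p = 0.0434), without both doubted libraries (-0.67) and with length removal added (-0.68). It did not pass within the first run (-0.03, limma adjusted p = 0.981), which holds both doubted libraries, or with sex as covariate (-0.21, limma adjusted p = 0.552). The doubted library WT 2 is the only female WT library, so the fit with sex depends on it too. The log2 fold change of Rbck1 ran from -0.52 to -0.24 when single libraries were left out. The doubted libraries were picked on its level. Signs turned for Cldn18 (0.0084 with equal totals, 0.0166 within the second run, 0.0045 without WT 2, -0.0433 to 0.0045 over single libraries left out), for Cgn (-0.0148), Cldn4 (-0.0797) and Cldn10 (-0.3592) within the second run, and for Tjap1 (-0.0018) within the first. The cause was not tested. Directions of Cldn3, Cldn7, Ocln, Tjp1, F11r and Cdh1 were the same in all 27 fits, which share libraries. Library depth is unknown, so counting error could not be separated from the spread between mice.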
